A study of Mus musculus with 10 samples.

Results

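The genes of the phagocyte NADPH oxidase were described in RNA sequencing data of 5 mouse blood cell populations: Cybb, Cyba, Ncf1, Ncf4 and Rac2, chosen by gene symbol, 5 of the 22923 symbols measured. The populations were mature granulocytes, small pre-B cells and large pre-B cells from bone marrow, and quiescent and cycling CD4+CD8+ thymocytes from thymus, all from C57bl/6 mice at 4 weeks of age. Each population was sequenced once as control (Dyrk1a flox/flox, Mx1-Cre-) and once as CKO, the label given to mice recorded as Dyrk1a -/-, Mx1-Cre+. The cells of a genotype came from a single pool of 2 mice, so there were 10 libraries and no replicate animals. Dyrk1a encodes a protein kinase, and Mx1-Cre is a Cre transgene driven by an interferon-inducible promoter that is active in many cell types, not in blood cells alone. The control mice carried the floxed gene but no Cre, so any effect of the transgene itself cannot be told apart from that of the deletion. The labels state neither the surface markers nor the gates of the sort.

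The phagocyte oxidase passes electrons from NADPH across a membrane to oxygen and so makes superoxide, which neutrophils and macrophages use against engulfed microbes. Its catalytic subunit gp91phox (NOX2, from Cybb) and the partner p22phox (Cyba) sit in the membrane, while cytosolic subunits, among them p47phox (Ncf1) and p40phox (Ncf4), wait in the cytosol until the cell is stimulated and the GTPase Rac2 joins them. Loss of a subunit in humans causes chronic granulomatous disease, in which neutrophils ingest bacteria and fungi but fail to kill them.

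The members lie on 4 chromosomes, and the DNA just upstream of their start sites is shown because several of them had the same order of levels over the populations. On mm10 with GENCODE vM21, Cybb was at chrX:9435252-9487771 on the minus strand, Cyba at chr8:122424776-122432930 on the minus strand, and Ncf1 at chr5:134220053-134229625 on the minus strand. Ncf4 at chr15:78244801-78262580 on the plus strand and Rac2 at chr15:78559167-78572783 on the minus strand shared a chromosome, 297 kb apart. RefSeq promoter windows on GRCm38.p6 were at hand for 3 of the 5 members, and the 250 bases upstream of each start are printed 5′ to 3′ along the gene. Capitals mark a pair of GAAA blocks with any 2 bases between them, on either strand, the element bound by interferon regulatory factors. The Cybb window was chrX:9469325-9469574 (minus strand), inside the longer gene span of GENCODE, the Ncf1 window chr5:134229626-134229875 (minus strand) and the Cyba window chr8:122432941-122433190 (minus strand).
Cybb: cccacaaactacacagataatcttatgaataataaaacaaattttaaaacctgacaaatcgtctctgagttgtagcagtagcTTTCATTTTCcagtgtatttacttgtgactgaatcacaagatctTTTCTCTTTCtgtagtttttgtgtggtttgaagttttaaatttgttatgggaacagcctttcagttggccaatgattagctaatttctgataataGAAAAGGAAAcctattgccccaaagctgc
Ncf1: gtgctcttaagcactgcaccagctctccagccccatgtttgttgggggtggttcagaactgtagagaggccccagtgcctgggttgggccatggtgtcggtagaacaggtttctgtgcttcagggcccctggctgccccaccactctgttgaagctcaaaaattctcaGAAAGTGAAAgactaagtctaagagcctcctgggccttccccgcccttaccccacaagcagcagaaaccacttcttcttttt
Cyba: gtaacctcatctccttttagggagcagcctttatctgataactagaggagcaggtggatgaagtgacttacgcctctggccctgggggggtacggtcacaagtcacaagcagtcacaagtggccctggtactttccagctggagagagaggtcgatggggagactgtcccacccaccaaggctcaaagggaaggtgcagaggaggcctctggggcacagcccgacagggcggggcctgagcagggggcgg
The Cybb window held the element 3 times and the Ncf1 window once, whereas no match was in the Cyba window. Of 32851 mouse windows of this length, 2.98% held it. The Cybb window also held TGTGGT, the core letters of RUNX sites (14% of windows), 103 bases upstream of the start, and CCAAT (33.8% of windows) 56 bases upstream. The letters GAGGAA (one form of the PU.1 site, 23.3% of windows) and TTNNGCAA (C/EBP type, 9.56% of windows) were in none of the 3 windows on either strand. A match of letters is a description of the sequence and not evidence of binding.

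The values were read as FPKM (fragments per kilobase and library size), which can be compared between genes because they are per length. A library of the 8 lymphoid ones summed to 360394 to 431868 FPKM, control granulocytes to 830006 FPKM and CKO granulocytes to 1074258 FPKM. Between 9818 and 10350 symbols reached 1 FPKM in a library. S100a9 was listed at 0 in both granulocyte libraries and S100a8 and Ngp in the control one, although granulocytes are known for these genes, so a listed 0 can be a failed estimate. None of the 5 members was listed at 0 in any library. Dyrk1a was 31.2 to 37.4 FPKM in control and 34.4 to 44.7 FPKM in CKO libraries, so its gene-level value did not show the deletion, and the libraries are called by their labels. The summed pre-B and thymocyte markers were highest in the lineage of the label. The 12 pre-B markers summed to between 3965 and 6742 FPKM in pre-B libraries. They summed to 698 to 1114 FPKM in thymocytes and 1527 to 1530 FPKM in granulocytes. Their median was 213.6 to 392.2 FPKM in pre-B libraries, 1.74 and 2.43 FPKM in granulocytes and 0.112 to 0.248 FPKM in thymocytes. The 12 thymocyte markers summed to between 3133 and 4750 FPKM in thymocytes against 9.21 to 33.95 FPKM elsewhere. Not all granulocyte markers were confined to granulocytes: Elane, Prtn3, Mpo and Ctsg reached 55.0% to 75.2% of the granulocyte mean in large pre-B cells.

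Cybb, the catalytic subunit, was a granulocyte transcript that pre-B cells carried at a low level and thymocytes nearly lacked. Granulocytes held 1403 FPKM (control) and 1239 FPKM (CKO). Small pre-B cells held 14.3 and 18.8 FPKM, and in large pre-B cells 11.9 and 5.00 FPKM. Both granulocyte libraries were above all others, both small pre-B libraries were above both large pre-B libraries, and no pre-B library overlapped a thymocyte library. In quiescent thymocytes Cybb was 0.0765 and 0.177 FPKM, and in cycling thymocytes 0.245 and 0.159 FPKM, control first. The thymocyte states overlapped at these levels, where an FPKM value rests on few fragments.

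Cyba, whose product p22phox also partners other NOX enzymes, was present in every population. Granulocytes held 1745 FPKM (control) and 1429 FPKM (CKO), and the first of these was the highest level of any member. In small pre-B cells it was 121.6 and 72.9 FPKM, and large pre-B cells 76.8 and 49.7 FPKM. Quiescent thymocytes held 74.4 and 69.0 FPKM, and cycling thymocytes 98.5 and 85.5 FPKM. Below the granulocytes its order was therefore mixed: cycling thymocytes lay within the range of small pre-B cells, and quiescent thymocytes within that of large pre-B cells. The CKO library was the lower one in each of the 5 populations.

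Ncf1, the organiser that carries the cytosolic complex to the membrane, had the order of Cybb from granulocytes down to large pre-B cells. It was 1697 FPKM in both granulocyte libraries. Small pre-B cells held 20.7 FPKM in control and 24.2 FPKM in CKO cells, and large pre-B cells 11.6 and 9.10 FPKM. The small and large pre-B libraries did not overlap. In quiescent thymocytes Ncf1 was 0.647 and 0.421 FPKM, and in cycling thymocytes 0.628 and 0.416 FPKM, so that the states overlapped.

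Ncf4, the p40phox subunit that binds a membrane phosphoinositide, was the least abundant member in granulocytes, at 635 FPKM in control and 652 FPKM in CKO cells. Small pre-B cells held 30.8 and 16.4 FPKM, and large pre-B cells 14.7 and 11.96 FPKM. The order of the pre-B stages was that of Cybb and Ncf1, again with no overlap. Quiescent thymocytes held 0.242 and 0.212 FPKM and cycling thymocytes 0.195 and 0.135 FPKM, a small gap far under 1 FPKM.

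Rac2, the GTPase of the Rac family found mainly in blood cells, varied least. Granulocytes held 1321 FPKM (control) and 1079 FPKM (CKO). In small pre-B cells it was 219 and 166 FPKM and in large pre-B cells 171.5 and 149.6 FPKM, with overlap between the stages. Cycling thymocytes held 138 and 133 FPKM, and quiescent thymocytes 116 and 121 FPKM. Both thymocyte states thus lay below the pre-B cells, and quiescent cells lay below cycling cells without overlap. The widely expressed relative Rac1 was 362 and 367 FPKM in granulocytes and between 123 and 177 FPKM in the lymphoid libraries. Reads shared by the similar Rac genes may have been split between them by the authors' estimate, and the size of this was not tested.

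**Figure D1:**
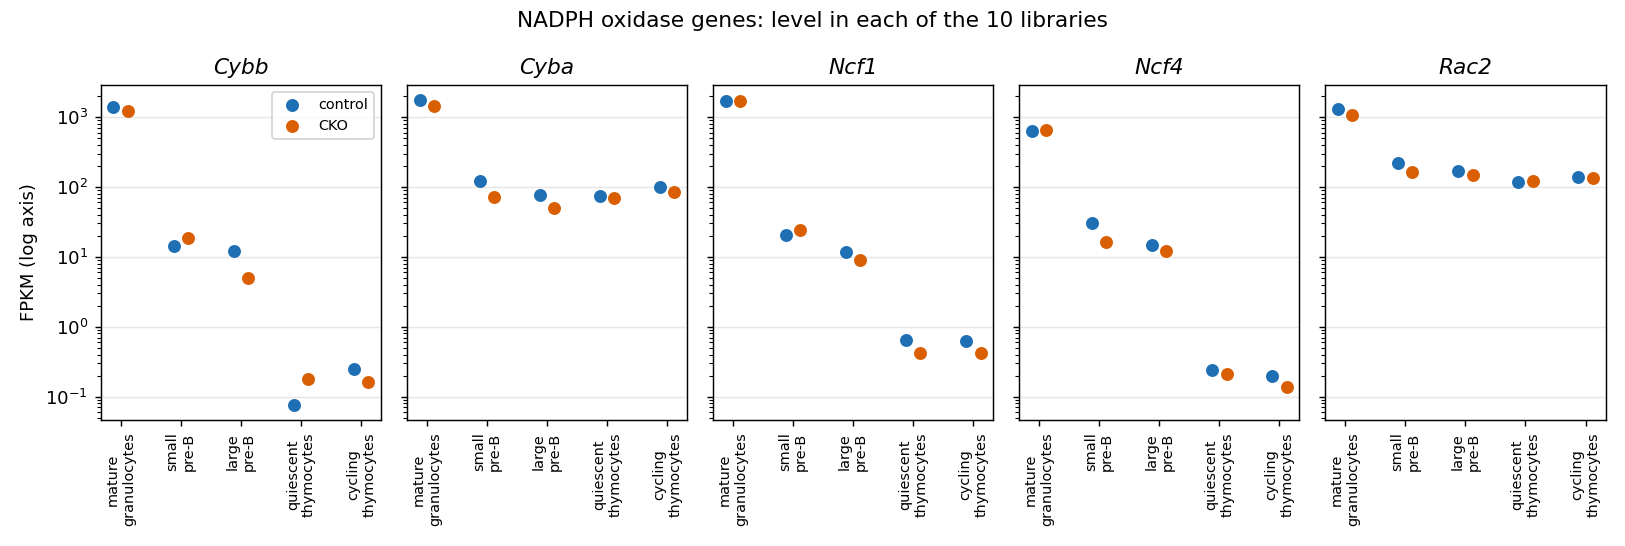
Level of each oxidase gene in each library, in FPKM on a log axis, for mature granulocytes, small and large pre-B cells and quiescent and cycling thymocytes. Each point is 1 library, blue for control and orange for CKO. Cybb, Ncf1 and Ncf4 fall from 635 FPKM or more in granulocytes to under 1 FPKM in thymocytes, whereas Cyba and Rac2 stay above 49 FPKM in every library.

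The proportions among the subunit transcripts differed between the lineages. The FPKM ratio of Cyba to Cybb, the membrane partners, was 1.24 in control and 1.15 in CKO granulocytes. It was between 3.87 and 9.95 in the pre-B libraries and between 391 and 973 in the thymocytes. The membrane partners were thus at nearly equal levels in granulocytes and far apart in thymocytes. The FPKM ratio of Ncf1 to Ncf4 was 2.67 and 2.60 in granulocytes and 0.671 to 1.48 in pre-B cells. The FPKM ratio of Rac2 to Rac1 was 3.65 and 2.94 in granulocytes, 1.77 and 1.29 in small pre-B cells, 0.989 and 0.867 in large pre-B cells and 0.781 to 0.798 in thymocytes. Rac2 thus exceeded Rac1 in granulocytes and small pre-B cells and was below it in the other libraries. Together the 5 members summed to 6800 and 6096 FPKM in granulocytes, to between 225 and 406 FPKM in pre-B cells and to between 191 and 238 FPKM in thymocytes. Among all symbols of the control granulocyte library Cyba ranked 44, Ncf1 45, Cybb 63, Rac2 64 and Ncf4 171 by FPKM.

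Granulocytes were compared with the pre-B cells of the same marrow, in all 10 libraries with genotype as a block, on the log2(FPKM + 1) scale. All 5 members were higher in granulocytes, in each of the 4 pairs of a granulocyte and a pre-B library of a genotype, where 41% of the 11715 genes tested were called higher. The difference was 6.74 (SE 0.28, limma adjusted p = 1.02e-06) for Cybb and 6.71 (SE 0.13, limma adjusted p = 5.39e-08) for Ncf1. The Ncf4 difference was 5.14 (SE 0.19, limma adjusted p = 6.94e-07) and the Cyba difference 4.35 (SE 0.14, limma adjusted p = 3.91e-07). The difference was smallest for Rac2, at 2.77 (SE 0.11, limma adjusted p = 7.93e-07), and it was 1.30 for Rac1.

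Against thymocytes all 5 members were again higher in granulocytes, in 4 of 4 pairs, where 41.5% of genes were called higher. The log2(FPKM + 1) difference was 10.15 (SE 0.28) for Cybb, 10.12 (SE 0.13) for Ncf1 and 9.07 (SE 0.19) for Ncf4, with limma adjusted p between 2.04e-08 and 1.57e-07. For Cyba it was 4.27 (SE 0.14, limma adjusted p = 3.47e-07) and for Rac2 3.23 (SE 0.11, limma adjusted p = 3.39e-07). The added 1 FPKM understates the differences of Cybb, Ncf1 and Ncf4, which were under 1 FPKM in each thymocyte library. These genes reached the 1 FPKM needed for testing only in granulocytes and pre-B cells. A level above that of thymocytes was thus partly built into their being tested. These calls measure how alike the libraries of 2 pools were and not the spread between animals, and in bulk samples fewer cells of a type and less RNA per cell cannot be told apart.

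Pre-B cells were compared with thymocytes in the 8 lymphoid libraries. In all, 4 of 5 members were called higher in pre-B cells, in 8 of 8 pairs, where 36.9% of the 11126 genes tested were called higher, and Cyba did not pass the test. The log2(FPKM + 1) difference was 3.94 (SE 0.16, limma adjusted p = 1.47e-05) for Ncf4, 3.41 (SE 0.12, limma adjusted p = 9.42e-06) for Ncf1 and 3.41 (SE 0.25, limma adjusted p = 0.000102) for Cybb. These 3 genes reached the 1 FPKM needed for testing only in the pre-B libraries, so a higher value there was built into their being tested. Rac2 was higher by 0.46 (SE 0.09, limma adjusted p = 0.00522). Cyba differed by -0.09 (SE 0.12, limma adjusted p = 0.555), with 4 of 8 pairs in each direction. Rac1 differed by -0.13 (limma adjusted p = 0.119).

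**Figure D2:**
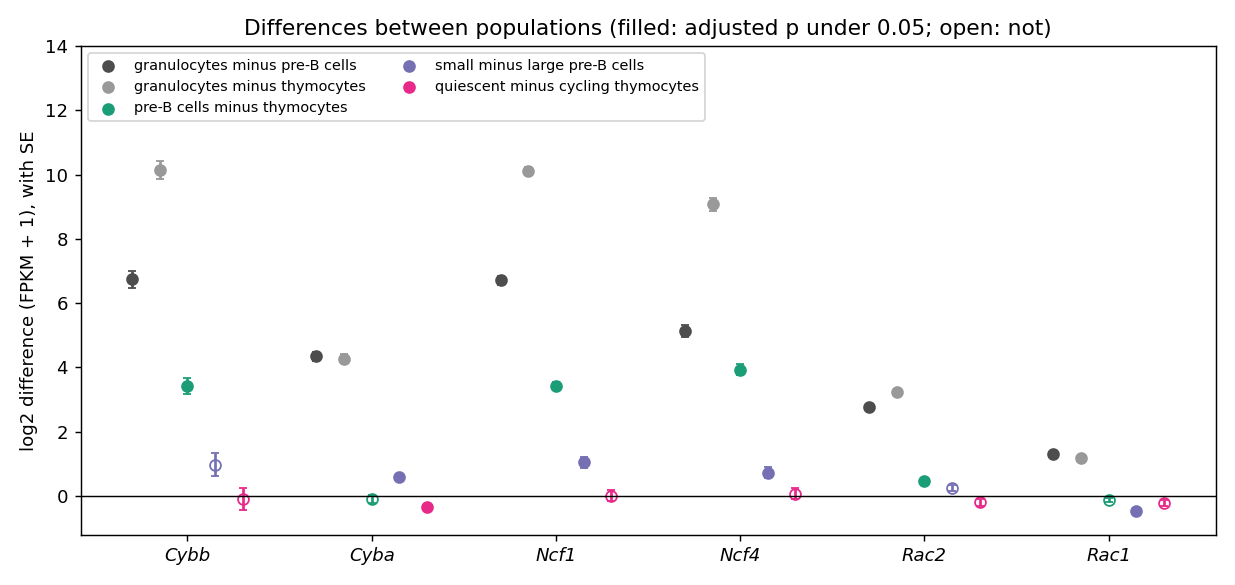
Difference in log2(FPKM + 1) between populations for the 5 members and Rac1, with standard error bars from limma. Filled points have an adjusted p under 0.05 and open points do not. Cybb, Ncf1 and Ncf4 differ by more than 3 between pre-B cells and thymocytes, whereas Cyba lies at -0.09 and Rac2 at 0.46.

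The pre-B libraries also held transcripts of granulocyte genes, so the members were set beside granulocyte markers as a percent of the granulocyte mean FPKM. In small pre-B cells Cybb reached 1.25%, Ncf1 1.32%, Ncf4 3.67%, Cyba 6.13% and Rac2 16.0% of the granulocyte mean. The 11 markers of the later granulocyte stages, such as Camp, Ltf and Mmp8, reached 0.0535% to 0.216% there, with a median of 0.0892%. Every member was thus at a larger percent than each of these 11 markers. In large pre-B cells Cybb reached 0.64%, Ncf1 0.611%, Ncf4 2.07%, Cyba 3.98% and Rac2 13.4%, against 0.0223% to 0.23% for the same 11 markers. The 4 primary granule genes Elane, Prtn3, Mpo and Ctsg, which immature granulocytes transcribe, went the other way. They were at 55.0% to 75.2% of the granulocyte mean in large pre-B cells. In small pre-B cells they were at 1.11% to 1.59%, a range that held Cybb and Ncf1. The 18 granulocyte markers found, without S100a8, S100a9 and Ngp, summed to 928 FPKM in control and 399 FPKM in CKO large pre-B cells and to 114 and 75.2 FPKM in small pre-B cells, with no marker listed at 0 there. The primary granule genes thus made the sum larger in large pre-B cells. The median of the other 11 markers was 0.0376% there and 0.0892% in small pre-B cells, the direction of every member. Among these 11, Csf3r went the other way, at 0.23% in large and 0.0987% in small pre-B cells. Monocyte markers were not set on this scale, and the part of other marrow cells in the pre-B levels of the members was not tested.

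**Figure D3:**
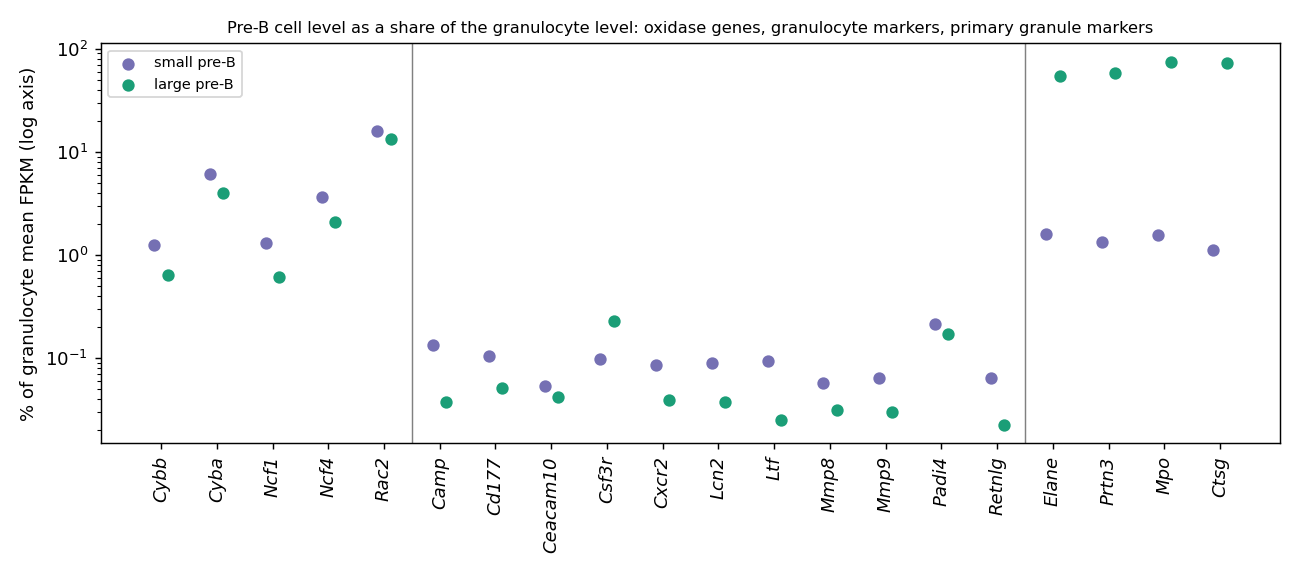
Mean FPKM over both genotypes in small and large pre-B cells as a percent of the granulocyte mean, on a log axis, for the 5 members (left), 11 granulocyte markers (middle) and 4 primary granule genes (right). The members lie at 0.611% or more, the 11 markers at 0.23% or less, and the primary granule genes are at 55.0% or more in large pre-B cells only.

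Small pre-B cells, which have left the cell cycle, were compared with large pre-B cells, which divide. All 5 members were higher in small pre-B cells in 2 of 2 pairs, and 3 of them were called, where 25.6% of genes were called higher. The log2(FPKM + 1) difference was 1.05 (SE 0.17, limma adjusted p = 0.00754) for Ncf1, 0.72 (SE 0.18, limma adjusted p = 0.0226) for Ncf4 and 0.60 (SE 0.10, limma adjusted p = 0.00785) for Cyba. Cybb differed by 0.98 (SE 0.34, limma adjusted p = 0.0631) and Rac2 by 0.25 (SE 0.10, limma adjusted p = 0.0951). The Cybb difference was 0.24 without either CKO pre-B library and 1.72 without either control pre-B library. Rac1 was lower by -0.45 (SE 0.09, limma adjusted p = 0.0144). The calls of Cyba and Ncf1 were lost without any one of the 4 pre-B libraries, with limma adjusted p of 0.0626 to 0.124 for Cyba and 0.0564 to 0.0708 for Ncf1. The call of Ncf4 was lost without control large or control small pre-B cells, where its difference was 0.42, and also with no filter. Of 16 granulocyte markers tested, 10 were also called higher and 5 lower in small pre-B cells, and of 9 monocyte markers 1 was higher and 6 lower; their part in the differences was not tested.

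Quiescent thymocytes were compared with cycling ones in the same fit. Cyba alone of the members was called, and it was lower in quiescent than in cycling thymocytes in 2 of 2 pairs, by -0.35 (SE 0.10, limma adjusted p = 0.0323), where 19.7% of genes were called lower. Rac2 differed by -0.19 (SE 0.10, limma adjusted p = 0.179). Cybb, Ncf1 and Ncf4, under 1 FPKM in these libraries, differed by -0.09, 0.01 and 0.07, with limma adjusted p of 0.768 to 0.969. The state effect in pre-B cells minus that in thymocytes was 0.95 for Cyba (SE 0.14, limma adjusted p = 0.0289), where 3.22% of genes were called higher. For Ncf1 this contrast was 1.04 (SE 0.23, limma adjusted p = 0.0613), for Cybb 1.08 (SE 0.49, limma adjusted p = 0.218), for Ncf4 0.65 (SE 0.25, limma adjusted p = 0.164) and for Rac2 0.44 (SE 0.15, limma adjusted p = 0.124). Both Cyba calls were lost when any one of the 8 libraries was left out, at limma adjusted p of 0.0699 to 0.224 in thymocytes and 0.073 to 0.197 for the contrast. The fit had 2 residual degrees of freedom.

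Between genotypes no member was called. Over 5 populations, with population as a block, 0 of 5 members and 0.0512% of genes (6 of 11715) passed the limma threshold, while 1 of 5 members and 1970 genes had an unadjusted p under 0.05. That member was Cyba, lower in the CKO library in 5 of 5 pairs by -0.39 on the log2(FPKM + 1) scale (SE 0.10, limma adjusted p = 0.214). The other differences were -0.18 (SE 0.20) for Cybb, -0.10 (SE 0.09) for Ncf1, -0.24 (SE 0.14) for Ncf4 and -0.18 (SE 0.08) for Rac2, with limma adjusted p of 0.308 to 0.659. In the 4 lymphoid populations alone 0 of 5 members and 0.036% of genes were called by limma. There Cyba was at -0.41 (SE 0.12, limma adjusted p = 0.253) and Ncf4 at -0.31 (SE 0.16, limma adjusted p = 0.358), each lower in 4 of 4 pairs. Without the small pre-B pair Ncf4 was at -0.13 there and at -0.09 over 5 populations. The genotype effect in pre-B cells minus that in thymocytes was -0.52 for Cyba (SE 0.14, limma adjusted p = 0.193) and -0.52 for Ncf4 (SE 0.25, limma adjusted p = 0.431). By this contrast 0 of 5 members and 0.00899% of genes were called by limma.

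Within a population the genotypes could be compared only as ratios of single libraries, without a test, among genes whose higher library reached 5 FPKM. In granulocytes 0 of 5 members differed by 2-fold, where 2.33% of genes did, and the members lay between -0.29 (Cyba and Rac2) and 0.04 (Ncf4) on the log2 scale. In small pre-B cells 0 of 5 members and 6.3% of genes differed by 2-fold. There Ncf4 was at -0.88 and Cyba at -0.73, whereas Cybb was at 0.38 and Ncf1 at 0.22. In large pre-B cells all 5 members were lower in the CKO library, where 42.7% of genes were lower. Of the 5, 1 (Cybb) was lower by 2-fold, where 0.972% of genes were. With a pseudocount of 5 it was not lower by 2-fold. CKO large pre-B cells held 41.9% of the control Cybb level, a log2 ratio of -1.11. In thymocytes Cyba and Rac2 had the 5 FPKM needed, and neither differed by 2-fold, where 5.26% of genes did in quiescent and 0.954% in cycling cells.

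**Figure D4:**
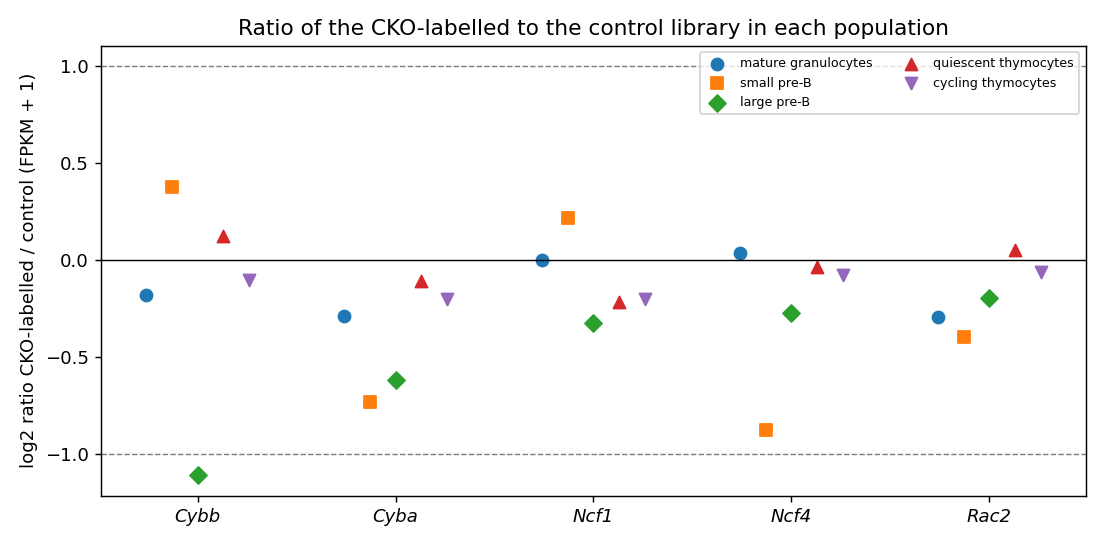
Log2 ratio of the CKO to the control library, on FPKM + 1, for each member in each population, with 1 point per population. Dashed lines mark a 2-fold difference, which Cybb in large pre-B cells passes at -1.11, and Cyba lies below 0 in all 5 populations.

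Markers of other marrow cells differed between the same libraries. In large pre-B cells, 9 of 9 granulocyte markers with enough signal were lower in the CKO library, 4 of them by 2-fold (median -0.78), and 8 of 8 monocyte markers were lower, 4 of them by 2-fold (median -0.92). Of all genes there, 42.7% were lower, and 0.972% were lower by 2-fold (median 0.03). The 11 monocyte markers summed to 288 FPKM in control and 126.4 FPKM in CKO large pre-B cells. The Cybb ratio thus lay beside lower summed markers of both phagocyte types. In small pre-B cells, 7 of 7 markers of natural killer cells were at least 2-fold higher in the CKO library (median 2.44), where 4.52% of all genes were. The 12 listed summed to 15.8 FPKM in control and 135.8 FPKM in CKO cells, with medians of 0.989 and 7.24 FPKM. Those counted reached 5 FPKM in the higher library, here the CKO one, so their being higher was partly built into the count. Of 8 markers of plasmacytoid dendritic cells, 6 were at least 2-fold higher in the CKO library (median 2.42). Another 1 of the 8 was at least 2-fold lower, where 1.78% of all genes were. The plasmacytoid markers listed summed to 1083 FPKM in control and 953.8 FPKM in CKO cells. Granulocyte markers were lower in 9 of 9 cases there (median -0.45), where 63.5% of all genes were lower (median -0.1). Monocyte markers summed to 90.2 FPKM in control and 162.7 FPKM in CKO small pre-B cells. In granulocytes 11 of 11 monocyte markers were lower in CKO cells, 6 by 2-fold (median -1.23), where 52% of all genes were lower and 1.76% by 2-fold. The part of these cells in the ratios of the members was not tested.

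Other genes of the NADPH oxidase family were mostly under 1 FPKM. Of 15 relatives listed, 10 did not reach 1 FPKM in any library, among them Nox1, Nox4 and Duox1, alternative oxidases of other tissues. 2310003H01Rik is the symbol used in the files for Cybc1, whose product helps the assembly of gp91phox and p22phox. It reached 7.34 FPKM in granulocytes of the control and 9.55 FPKM in those of the CKO pool and was higher there than in pre-B cells by 0.89 on the log2(FPKM + 1) scale (limma adjusted p = 0.000278). It differed from the members in being lower in small than in large pre-B cells, by -0.76 (limma adjusted p = 0.00732). Sh3pxd2a, an organiser for other NOX enzymes, was lower in granulocytes than in pre-B cells, by -1.65 (limma adjusted p = 0.000193).

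Genes that act in the control of oxidase activation, not all of them activators, were mostly higher in granulocytes as well. Of 35 tested, 30 were called higher and 3 lower than in pre-B cells, with a median of 2.16 on the log2(FPKM + 1) scale against 0.03 for all genes, of which 41% were called higher and 36.7% lower. Among them were Fpr2, a formyl peptide receptor (9.63, limma adjusted p = 3.18e-08), and Itgam and Itgb2, which form the integrin Mac-1 (7.75 and 6.27). The exchange factor Vav2 was lower (-3.19, limma adjusted p = 1.66e-06). Of 12 tested enzymes of NADPH supply and the pentose phosphate pathway, not all of which make NADPH, 9 were higher and 3 lower (median 2.13). G6pdx and Pgd, the NADPH-making dehydrogenases of the pentose phosphate pathway, were higher by 5.31 and 4.86 (limma adjusted p of 3.78e-08 and 5.79e-08), and the mitochondrial Idh2 was lower (-2.91). Of 21 tested genes of the handling of reactive oxygen, not all of which remove it, 12 were higher and 7 lower (median 1.64). Glutathione reductase Gsr was higher by 7.19 (limma adjusted p = 4.82e-07) and the peroxiredoxin Prdx4 lower by -3.58.

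Among 17 tested regulators known to act on oxidase genes, 12 were called higher and 3 lower in granulocytes than in pre-B cells (median 1.28). Of all genes tested, 41% were called higher and 36.7% lower (median 0.03). Sfpi1, the older symbol of Spi1 (PU.1), was also highest in granulocytes, lower in pre-B cells and near 0 in thymocytes, with overlap between the pre-B stages. It was 878 and 828 FPKM in granulocytes, 67.6 and 45.5 FPKM in small and 46.3 and 35.1 FPKM in large pre-B cells, and under 0.3 FPKM in thymocytes. Its difference was 4.14 between granulocytes and pre-B cells (limma adjusted p = 8.2e-07), 5.42 between pre-B cells and thymocytes (limma adjusted p = 4.54e-06) and 0.45 between small and large pre-B cells (limma adjusted p = 0.0319). Cebpe was higher in granulocytes than in pre-B cells by 7.95 (limma adjusted p = 4.03e-08), whereas Irf8 was lower by -3.55 (limma adjusted p = 5.77e-05).

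Around the members, the pathway lists were counted between the pre-B stages, where 25.6% of all genes were called higher and 21.8% lower. Of 32 tested genes of activation control, 14 were higher and 5 lower in small than in large pre-B cells, with the Fc receptor gene Fcgr3 lower by -2.17 (limma adjusted p = 0.00437). Of 19 tested genes of the handling of reactive oxygen, 0 were called higher and 9 lower (median -0.40), among them Gsr (-1.96, limma adjusted p = 0.00821). Of 12 enzymes of NADPH supply and the pentose phosphate pathway, 1 was higher and 3 lower, with transketolase Tkt at -1.22 (limma adjusted p = 0.00452). Between genotypes over 5 populations, 0 genes of these lists were called by limma. The enzymes of NADPH supply and the pentose phosphate pathway had a median of -0.25 there, with 8 of 12 at an unadjusted p under 0.05, where 1970 of 11715 genes were. Over the 4 lymphoid populations their median was -0.23 and 4 of 12 were under 0.05, where 1867 of 11126 genes were.

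The genes most like each member were ranked by Pearson's r of log2(FPKM + 1) over the 10 libraries, among 9299 genes. Cybb was most like Ncf1 (r = 0.9985), then Gapt and Aldh3b1. Ncf1 was most like Aldh3b1 (0.9988), Tdrd7 and Cybb, and Ncf4 was most like Gcnt1 (0.9983). Cybb and Ncf1 were thus each among the closest 3 genes of the other. AA960436 was among the closest genes to Cyba (0.9924), Rac2 was most like Nqo2 (0.9977), and no member was among their closest 3. The 10 libraries share the gap between granulocytes and the rest, so the same ranking was made in the 8 lymphoid libraries. There Cybb was most like Naip5 (0.9976), Ncf1 most like Fam129a (0.9987), Ncf4 most like Cnrip1 (0.9990) and the kinase gene Lyn (0.9988), and Rac2 most like Exoc3 (0.9902). Cyba had no gene above 0.99, the closest being Iah1 (0.9253). In these 8 libraries r was 0.976 to 0.992 among Cybb, Ncf1 and Ncf4, and 0.866 to 0.893 between these and Rac2. With Cyba it was 0.018 to 0.048 for Cybb, Ncf1 and Ncf4, and 0.443 for Rac2. These values describe libraries that share 2 pools and a gap between pre-B cells and thymocytes.

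Between Ncf4 and Rac2 on chromosome 15 lay 10 protein-coding genes, 9 of them among the symbols measured. Csf2rb and Csf2rb2, receptor chains for GM-CSF and interleukin-3, were next to Ncf4 and were higher in granulocytes than in pre-B cells by 5.08 (limma adjusted p = 5.46e-06) and 3.41 (limma adjusted p = 0.00109). The sulfurtransferase genes Tst and Mpst were also higher there, by 4.47 and 1.33 (limma adjusted p of 5.52e-07 and 3.73e-05). The stretch was not uniformly high in granulocytes: Il2rb, a receptor chain for interleukin-2, was lower by -1.51 (limma adjusted p = 0.0334). Il2rb, also among the listed natural killer markers, was 1.17 and 1.56 FPKM in granulocytes, control first. It was 0.797 and 8.40 FPKM in small and 6.45 and 15.25 FPKM in large pre-B cells. Kctd17 differed by -0.54 (limma adjusted p = 0.118), and Tmprss6, C1qtnf6 and Sstr3 were too low to be tested.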

How the data were processed

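RNA from sorted cells was sequenced as 10 libraries, 1 per population and genotype, each from 2 pooled mice, per the labels. The submitters' processing notes name TopHat2 2.0.8b, Cuffdiff 2.1.1 and the build mm10 but not what each was used for. The deposited values are taken to be FPKM because Cuffdiff writes that unit and the values fit it; no label states it. The gene annotation and strand setting are not given in the sources used here. FPKM are relative within a library. Fragment numbers could not be recovered from the steps of low values, so depth is unknown and no counting intervals are given.

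Each file held 23179 rows, of which 201 repeated another exactly. A further 47 symbols had several rows, of which that with the highest mean was used, leaving 22923 symbols. The limma-trend method (limma 3.58.1 in R 4.3.3) was applied to log2(FPKM + 1), for genes that reached 1 FPKM in 2 fitted libraries or more, with Benjamini-Hochberg adjustment over all genes tested and a threshold of 0.05, in 9 comparisons. Residual degrees of freedom were 4 with all 10 libraries, 3 for lineage and lymphoid genotype comparisons and 2 for state effects and differences of effects. Because a genotype is 1 pool of mice, no p-value covers variation between animals. Genotypes within a population were compared as ratios, without a test, for genes reaching 5 FPKM in either library.

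The members and gene lists were chosen with earlier results of these data known. The lists were control of activation, NADPH supply with the pentose phosphate pathway, handling of reactive oxygen, regulators and cell markers. The text names the members, the oxidase relatives reaching 1 FPKM and, per list and comparison, some of the 3 genes with the highest mean and the called gene with the largest change each way. Results for some of them are not reported here. Spi1 was matched through RefSeq synonyms as Sfpi1. Motifs were searched on both strands. The fits were also run on simulated data with 200 changed genes and independent noise of the fitted residual spread. The outcome is not reported here, and such data hold no variation between animals. Each result was recomputed with a pseudocount of 0.1 or 5, with no filter or one at 5 FPKM, after median-ratio scaling, with other blocks and without single libraries or pairs. Tables and plots were made in Python 3.11.15 (numpy 2.4.6, pandas 2.3.3, matplotlib 3.10.9).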

Additional observations from a re-analysis of the deposited data

Results flagged for a closer look

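Cyba differed between the states in opposite directions in the B and T lineages, and the part of other cells in these differences was not tested. It was higher in small than in large pre-B cells in both genotypes and lower in quiescent than in cycling thymocytes in both genotypes. The difference between these effects, tested as a contrast of the limma fit, was 0.952 on the log2(FPKM + 1) scale. Among the 5 members it was the one contrast of this kind past the threshold, where 3.22% of genes were called higher and 3.62% lower. The call was lost with no filter and without any one of the 8 lymphoid libraries. Of all genes, 25.6% were called higher in small than in large pre-B cells and 19.7% lower in quiescent than in cycling thymocytes.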

How the results depend on the processing

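The calls of all 5 members in granulocytes against pre-B cells and against thymocytes, and of 4 members in pre-B cells against thymocytes, held under every alternative run. Leaving out a library gave 7632 to 9179 called genes (9109 in full), 7829 to 9291 (9211) and 6679 to 7537 (7916) in these comparisons. For small against large pre-B cells the range was 0 to 4856 genes (5277) and 0 to 3 members (3), for quiescent against cycling thymocytes 3 to 3391 genes (4997) and 0 members (1), and for the difference of the state effects 0 to 39 genes (761) and 0 members (1). Leaving 1 library in a group assumes that it varies like the others. A genotype block in place of the block by lineage and genotype left 0 members called in thymocytes. With no filter, 2 members were called between the pre-B stages. For the difference of state effects, a pseudocount of 0.1 gave 361 genes, no filter 0 genes and 0 members, and a pseudocount of 5 gave 2 members.

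Between genotypes 0 members were called under any alternative. Over 5 populations 6 genes were called, 2 with a pseudocount of 5, 1 with no filter and 1 to 4 without a pair. Over 4 populations 4 were called, 10 with a pseudocount of 0.1, 2 with a pseudocount of 5, 0 with no filter, 2 with no population block and 0 to 1 without a pair. For the difference between lineages 1 was called, 0 with no filter and 0 to 5 without a pair. With a pseudocount of 5 the genes at least 2-fold apart were 88 in granulocytes, 209 in small and 66 in large pre-B cells, 241 in quiescent and 37 in cycling thymocytes, and 0 members in large pre-B cells. A minimum of 1 FPKM gave 115 genes in cycling thymocytes.

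Some uncalled values changed sign when a library or pair was left out. The Cybb genotype difference ranged from -0.32 to 0.056 over 5 populations, from -0.36 to 0.13 over the lymphoid populations and from -1.12 to 0.37 between lineages, in each case positive without the large pre-B pair. The Ncf1 difference between lineages ranged from -0.12 to 0.43 and was negative without the small pre-B pair. Cyba in pre-B cells minus thymocytes ranged from -0.19 to 0.019, positive without CKO quiescent thymocytes or CKO small pre-B cells, and Cybb in quiescent minus cycling thymocytes from -0.21 to 0.021, positive without either control library. The causes were not tested. The labels give no replicate numbers; genotype fits paired the libraries by population, and population fits used the pool as a block. Depth is unknown, which limits what can be said of members under 1 FPKM.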
